A study of Mus musculus with 12 samples.

Results

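The transcripts of 35 mouse genes of glucose uptake, glycolysis, lactate export and the response to low oxygen were followed in Sp37A3 cells, an immature dendritic cell (DC) line from mouse spleen. The genes were listed by name from these pathways and found in the count table by their Ensembl identifiers. All 35 were among the 55401 genes of the table. Of these, 30 passed the expression filter (a CPM, the count scaled to the size of its library, whose log2 is above 0 in at least 2 libraries) that 14079 genes passed, and were tested. The study compared Sp37A3 cells labelled SiglecE-expressing, which carried an empty lentiviral CRISPR vector (CtrV), with cells labelled SiglecE-knockout (EKO), in which CRISPR/Cas9 was directed at Siglece, the gene of an inhibitory sialic acid-binding receptor. Each line was either left without antigen or pulsed with ovalbumin (OVA). The 4 groups were CtrV unpulsed, LPS-stimulated, CtrV OVA-pulsed, LPS-stimulated, EKO unpulsed, LPS-stimulated and EKO OVA-pulsed, LPS-stimulated, with 3 libraries of polyadenylated RNA in each. What all 12 libraries shared was culture in GM-CSF and M-CSF, lentiviral transduction, LPS, a processing time of 24 h and no group without LPS. The EKO line was a pool of single-cell clones picked for low Siglec-E protein, so it stands for those clones, and selection of clones and loss of Siglec-E cannot be told apart.

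Glycolysis splits glucose into pyruvate through a chain of cytosolic enzymes. Glucose transporters bring the sugar in, hexokinases trap it as glucose 6-phosphate, phosphofructokinase commits it to breakdown, and the later enzymes of the payoff phase recover ATP. Lactate dehydrogenase and the monocarboxylate transporters then turn pyruvate into lactate and export it, while pyruvate dehydrogenase kinases hold pyruvate back from the mitochondria. HIF-1 is a transcription factor whose alpha subunit is marked for destruction by oxygen-dependent prolyl hydroxylases, and many glycolytic genes are among its targets. DCs stimulated with LPS are known to raise glycolysis.

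HIF-1 binds a core written ACGTG or GCGTG. The former is also part of the E-box CACGTG, which other factors read. RefSeq promoter windows of build GRCm38.p6, from 250 bases before to 50 after a transcription start, were found for 33 of the 35 genes. These letters stood on either strand in 26 of the 33 windows (78.8%), in 43.8% of all 32851 windows and in 63.9% of the 8898 tested genes with a window. Of these 33 windows, 5 (15.2%) held CACGTG, against 7.15% of all windows and 10.2% of tested genes with a window. The bases before the start, 250 or, for Pfkfb4, the first 156 of them, are shown, 5′ to 3′ on the gene's strand with the matched letters in capitals, for the 2 genes that rose most and the 2 that fell most between the lines among those with such a match. In GENCODE M21 (GRCm38), Hk3 (hexokinase 3) is at chr13:55005985-55021385, minus strand, and Pfkfb4 (a phosphofructokinase regulator) is at chr9:108991778-109032228, plus strand. Slc16a3 (a lactate exporter) is at chr11:120948480-120960868, plus strand, and Bnip3 (a mitophagy receptor) is at chr7:138890836-138909519, minus strand. The windows shown cover, in GRCm38.p6, chr13:55021386-55021635 (minus strand) for Hk3, chr9:108991652-108991807 (plus strand) for Pfkfb4, chr11:120948817-120949066 (plus strand) for Slc16a3 and chr7:138909507-138909756 (minus strand) for Bnip3.
Hk3: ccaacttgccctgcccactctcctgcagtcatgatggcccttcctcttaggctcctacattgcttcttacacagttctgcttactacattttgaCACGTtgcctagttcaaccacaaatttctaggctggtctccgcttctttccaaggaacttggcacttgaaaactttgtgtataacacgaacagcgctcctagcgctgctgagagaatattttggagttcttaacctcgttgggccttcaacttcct
Pfkfb4: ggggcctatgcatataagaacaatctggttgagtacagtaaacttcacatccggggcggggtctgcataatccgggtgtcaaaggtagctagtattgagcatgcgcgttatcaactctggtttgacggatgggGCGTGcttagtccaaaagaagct
Slc16a3: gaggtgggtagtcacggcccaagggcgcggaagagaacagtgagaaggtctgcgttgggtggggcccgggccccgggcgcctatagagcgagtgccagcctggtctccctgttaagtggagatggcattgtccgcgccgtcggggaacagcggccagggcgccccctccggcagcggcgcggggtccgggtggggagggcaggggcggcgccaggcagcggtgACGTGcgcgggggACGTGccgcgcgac
Bnip3: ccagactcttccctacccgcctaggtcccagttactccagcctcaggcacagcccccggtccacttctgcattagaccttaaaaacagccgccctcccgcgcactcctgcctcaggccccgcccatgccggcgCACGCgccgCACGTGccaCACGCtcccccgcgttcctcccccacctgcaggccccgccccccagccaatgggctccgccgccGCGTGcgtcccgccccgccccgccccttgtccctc
The windows of Hk3 and Pfkfb4 each held 1 match, at positions -156 and -117 counted from the RefSeq start. That of Slc16a3 held 2 copies of ACGTG, at -27 and -14, and that of Bnip3 held 5 overlapping or separate matches between -117 and -35, with 1 CACGTG among them. Tpi1, the gene that fell most of all, had no match in its window. The windows were laid before RefSeq starts, and those of Pfkfb4, Slc16a3 and Bnip3 reach 30, 14 and 13 bases into an annotated exon of the same gene as shown. The match of Pfkfb4 falls within these exon bases, after the GENCODE start of the gene. The whole window of Slc16a3 also lies after the GENCODE start of its gene. A match is a run of letters and was not tested as a binding site.

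Library totals lay between 27116201 and 39698572 counts. Siglece mRNA was not lower in the libraries labelled EKO: it ranged from 150.0 to 163 CPM in CtrV and from 166 to 235 CPM in EKO-labelled libraries, a check that says nothing of the protein. Directions below are therefore those of the EKO-labelled line. All 12 DC and myeloid markers were tested, and their sum was 22056 to 24492 CPM over the 12 libraries. Most of it was Cd74 (13941 to 18247 CPM), so the sum hides differences in single markers. Flt3, Irf8, Csf1r, H2-Ab1, Ptprc and Itgam were higher in the EKO-labelled line (averaged log2 fold changes 1.33, 1.22, 0.53, 0.52, 0.38 and 0.20). Itgax and Cd74 were lower (-0.23 and -0.13). No difference was detected for Csf2ra, Spi1, Irf4 and Zbtb46 (0.046, 0.061, 0.14 and -0.053). Markers of T cells, B cells, fibroblasts and erythroid cells summed to at most 1.57 CPM. The 4 epithelial markers summed to 577 to 658 CPM in CtrV and 179 to 207 in EKO-labelled libraries, and the 4 endothelial markers to 167 to 203 and 285 to 348 CPM. Of these, Cdh1 was lower (averaged log2 fold change -1.83) and Epcam, Pecam1 and Cdh5 were higher (0.28, 0.86 and 0.89) in the EKO-labelled line, while Krt18 and Tek were at 0 in every library, and their part in the results was not tested. In bulk RNA, fewer cells that use a gene and less RNA per cell cannot be told apart.

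Between the lines, most of the glycolysis and hypoxia genes differed, in both directions and mostly by less than 2-fold. Hexokinase 2 and 3, the platelet-type phosphofructokinase Pfkp, the phosphofructokinase regulator Pfkfb4, Pgk1 and Hif1a rose in the EKO-labelled line with and without OVA. For Pfkp, the call was lost in 3 of 6 fits with OVA and 5 of 6 without when 1 library was left out. Both listed glucose transporters, triosephosphate isomerase, enolase 1, lactate dehydrogenase A and the lactate exporter Slc16a3 fell. With OVA, 22 of the 30 tested genes passed an adjusted p of 0.05 (73.3%), against 47% of all tested genes. Of these, 8 rose (25.1% of all genes did) and 14 fell (21.9% of all genes did). Without OVA, 20 of 30 passed (66.7%), against 46.4%, with 6 higher (24.5% of all genes) and 14 lower (21.9% of all genes). Averaged over pulsing, 23 of 30 passed (76.7%), against 60.5%, with 8 higher (31.3% of all genes) and 15 lower (29.1% of all genes). Calls came from the quasi-likelihood test of edgeR, its p-values adjusted by the Benjamini-Hochberg method across every gene tested. Nothing beyond the replicate numbers says that the 3 libraries of a group were separate cultures, so these p-values measure the spread between libraries. The averaged comparison counts the pulsed and unpulsed libraries of a line as separate. Deviations of same-numbered libraries from their group means correlated between the states. The values were 0.737, 0.381 and 0.498 in EKO-labelled and 0.149, 0.23 and 0.445 in CtrV cells. The 2 states of a line are thus not independent, and averaged p-values may be too small.

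The same direction passed in both states for 19 genes, against 39.4% of all tested genes. Of these, 6 were higher (21.3% of all genes) and 13 lower (18.1% of all genes), and no gene passed in opposite directions. The libraries of the lines did not overlap for 19 of the 30 genes with OVA (52.9% of all tested genes), for 20 without (47.1%) and for 18 over all 6 against 6 libraries (35.6%). The median log2 fold change of the 30 was -0.14 in each state, while that of all tested genes was 0.00064 with and 0.00013 without OVA. Without its sign, the median size was 0.35 in each state, against 0.21 over all tested genes. The genes were thus spread wide around a median slightly below 0, with Hk3 (2.29 with OVA) and Tpi1 (-1.07) at the ends.

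**Figure D1:**
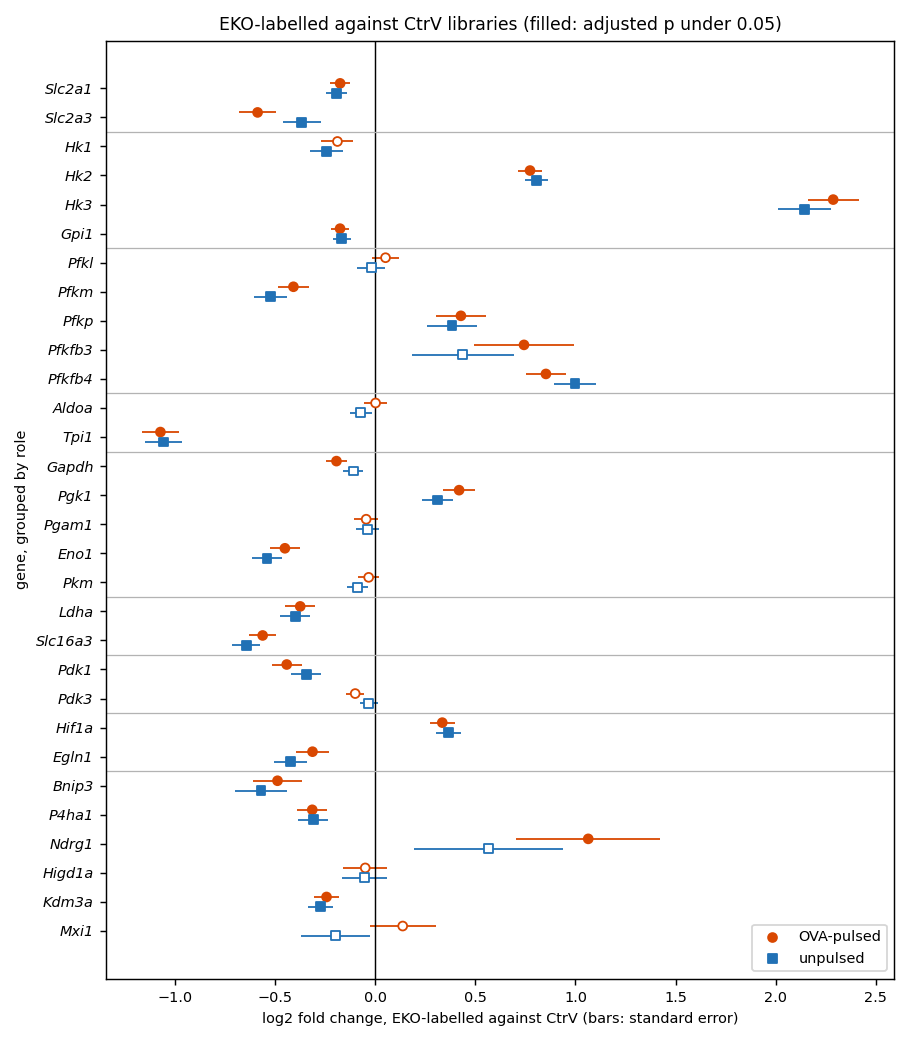
Log2 fold change of each of the 30 tested genes, EKO-labelled against CtrV (x axis, log2 units), with circles for OVA-pulsed and squares for unpulsed cells, bars of 1 standard error and filled symbols for an adjusted p under 0.05. The 2 states lie close together for most genes, Hk3 stands far to the right (2.29 and 2.14) and Tpi1 to the left (-1.07 and -1.06), and Pfkfb3 and Ndrg1 have the longest bars.

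**Figure D2:**
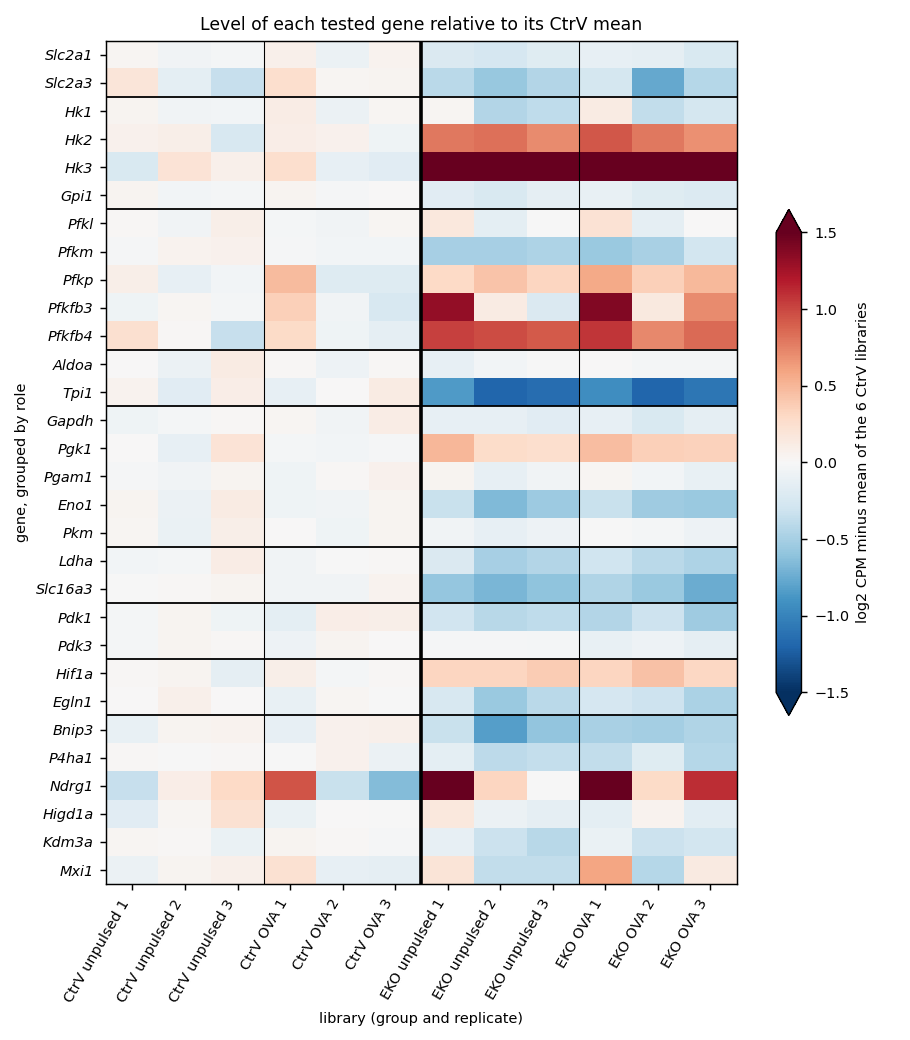
Log2 CPM of the 30 tested genes (rows, grouped by role) in the 12 libraries (columns), minus the mean of the 6 CtrV libraries of the gene. Red is higher and blue lower, and the colours end at 1.5, which Hk3 in the EKO-labelled libraries and Ndrg1 in replicate 1 of both EKO-labelled groups exceed. Hk2, Hk3, Pfkfb4 and Hif1a are red and Tpi1, Slc16a3 and Pfkm blue in all 6 EKO-labelled libraries, while Pfkfb3, Ndrg1 and Mxi1 are reddest in replicate 1.

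Of the listed glucose importers, both fell. Outside the list, Slc2a6 of the same family was more abundant than either and rose. Its group means went from 360 to 507 CPM without OVA and from 370 to 519 with OVA. The averaged log2 fold change of Slc2a6 was 0.49 (SE 0.058, adjusted p = 3.5e-05), while Slc2a8 and Slc2a9 fell (-0.43 and -0.80). Slc2a1 (GLUT1, the basal glucose transporter, chr4:119108711-119137983, plus strand) stood at 106, 99.9 and 101 CPM in the unpulsed and 109, 97.5 and 108 in the OVA-pulsed CtrV libraries, and 89.3, 87.1 and 91.5 and 95.2, 94.4 and 88.6 in the corresponding EKO-labelled libraries. Every EKO-labelled library lay below every CtrV library, by a small margin. The log2 fold change was -0.18 (SE 0.051, adjusted p = 0.017) with OVA and -0.19 (SE 0.052, adjusted p = 0.01) without, that is 1.13-fold and 1.14-fold lower. The call with OVA was lost without OVA-pulsed CtrV replicate 1 (-0.16, adjusted p = 0.063), OVA-pulsed CtrV replicate 3 (-0.15, adjusted p = 0.085), OVA-pulsed EKO replicate 1 (-0.17, adjusted p = 0.056) or OVA-pulsed EKO replicate 3 (-0.13, adjusted p = 0.099). Without replicate 1 of both EKO-labelled groups it was lost in each state (-0.16, adjusted p = 0.059 with OVA and -0.17, adjusted p = 0.056 without).

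Slc2a3 (GLUT3, a high-affinity glucose transporter) stood at 76.1, 60.6 and 52.8 CPM in the unpulsed and 79.8, 68.7 and 69.1 in the OVA-pulsed CtrV libraries, and 50.8, 45.4 and 49.7 and 55.9, 39.5 and 49.96 in the corresponding EKO-labelled libraries. The lines did not overlap within either state, but the lowest CtrV library was below the highest EKO-labelled library of the other state. It fell by 0.59 with OVA (SE 0.094, adjusted p = 0.00049) and by 0.37 without (SE 0.095, adjusted p = 0.009). Without the replicate block, the unpulsed call was lost (-0.38, adjusted p = 0.054). Per kilobase of exon, Slc2a1 made up 77.1 ± 2.84% (SD, n = 3) of the sum of both transporters in unpulsed CtrV and 79.2 ± 0.723% in unpulsed EKO-labelled cells, and with OVA 74.9 ± 1.22% and 79.9 ± 2.86% (two-sided exact permutation p = 0.3 without and 0.1 with OVA). The sum itself went from 37.9 ± 2.42 to 32.2 ± 0.950 CPM per kb without OVA and from 39.9 ± 2.45 to 33.1 ± 1.51 with OVA, without overlap in either state (two-sided exact permutation p = 0.1 in each, the smallest that 3 against 3 libraries allow).

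The hexokinases, which phosphorylate glucose, moved apart. Hk2, the inducible hexokinase that docks on mitochondria (chr6:82725025-82774454, minus strand), stood at 114, 116 and 92.3 CPM in the unpulsed and 117, 115 and 104 in the OVA-pulsed CtrV libraries, and 189, 194 and 178 and 209, 189.9 and 176 in the corresponding EKO-labelled libraries. The lowest EKO-labelled library was well above the highest CtrV library. Hk2 rose 1.71-fold with OVA, a log2 fold change of 0.77 (SE 0.058, adjusted p = 2.1e-06), and 1.75-fold without, 0.81 (SE 0.058, adjusted p = 1.7e-06).

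Hk3, a hexokinase of myeloid cells, was the least abundant of the hexokinases per kilobase and rose most of all 30 genes. It stood at 3.70, 5.01 and 4.56 CPM in the unpulsed and 5.15, 3.98 and 3.87 in the OVA-pulsed CtrV libraries, and 21.8, 18.03 and 19.2 and 24.7, 19.9 and 19.1 in the corresponding EKO-labelled libraries. All 6 EKO-labelled libraries were more than 3 times any CtrV library. The rise was 4.88-fold with OVA, 2.29 (SE 0.13, adjusted p = 2.4e-07), and 4.42-fold without, 2.14 (SE 0.13, adjusted p = 4.9e-07). None of its 50-base stretches were found in another annotated gene, as was the case for Hk2.

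Hk1, the housekeeping hexokinase, which is named here after its values were seen, stood at 103, 96.3 and 97.4 CPM in the unpulsed and 108, 94.5 and 102 in the OVA-pulsed CtrV libraries, and 102, 73.8 and 77.1 and 109, 77.7 and 83.2 in the corresponding EKO-labelled libraries. Replicate 1 of the EKO-labelled line was at the upper end of the CtrV libraries, and replicates 2 and 3 were below all of them. The log2 fold change was -0.19 (SE 0.080, adjusted p = 0.075) with OVA and -0.24 (SE 0.080, adjusted p = 0.029) without. The unpulsed call was lost without unpulsed CtrV replicate 2 (-0.19, adjusted p = 0.11), unpulsed CtrV replicate 3 (-0.22, adjusted p = 0.089), unpulsed EKO replicate 2 (-0.21, adjusted p = 0.11) or unpulsed EKO replicate 3 (-0.20, adjusted p = 0.12) and without the replicate block (-0.23, adjusted p = 0.21). Averaged over pulsing it was -0.22 (SE 0.057, adjusted p = 0.007), and -0.20, adjusted p = 0.097 without the block. The call with OVA was gained without replicate 1 of both EKO-labelled groups (-0.30, adjusted p = 0.0015), and also without OVA-pulsed CtrV replicate 1 (-0.25, adjusted p = 0.039) or OVA-pulsed EKO replicate 1 (-0.26, adjusted p = 0.038), with upper-quartile normalization (-0.23, adjusted p = 0.04) and with no filter (-0.20, adjusted p = 0.049).

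The share of each hexokinase in the 3 was compared next. Per kilobase of exon, Hk1 took 37.8 ± 2.75% (SD, n = 3) of their sum in unpulsed CtrV and 21.2 ± 2.76% in unpulsed EKO-labelled cells, and 37.4 ± 2.02% and 21.7 ± 1.90% with OVA. Hk2 took 58.3 ± 2.97% and 67.4 ± 3.35% without OVA, and 58.9 ± 2.09% and 66.4 ± 2.22% with OVA. Hk3 took 3.92 ± 0.697% and 11.4 ± 0.713% without OVA, and 3.68 ± 0.417% and 11.9 ± 0.370% with OVA. The sum was 30.8 ± 2.33 and 46.6 ± 2.81 CPM per kb without OVA, and 31.9 ± 1.57 and 48.4 ± 5.31 with OVA. The lines did not overlap in the sum or in any of the 3 shares (two-sided exact permutation p = 0.1 for each, the smallest possible with 3 against 3). Gpi1, which turns glucose 6-phosphate into fructose 6-phosphate, fell 1.13-fold with OVA, -0.18 (SE 0.045, adjusted p = 0.0084), and 1.12-fold without, -0.17 (SE 0.045, adjusted p = 0.011). Its unpulsed call was lost when only the unpulsed libraries were fitted (-0.17, adjusted p = 0.1), as were those of Slc2a1 (-0.20, adjusted p = 0.06) and Hk1 (-0.25, adjusted p = 0.07).

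**Figure D3:**
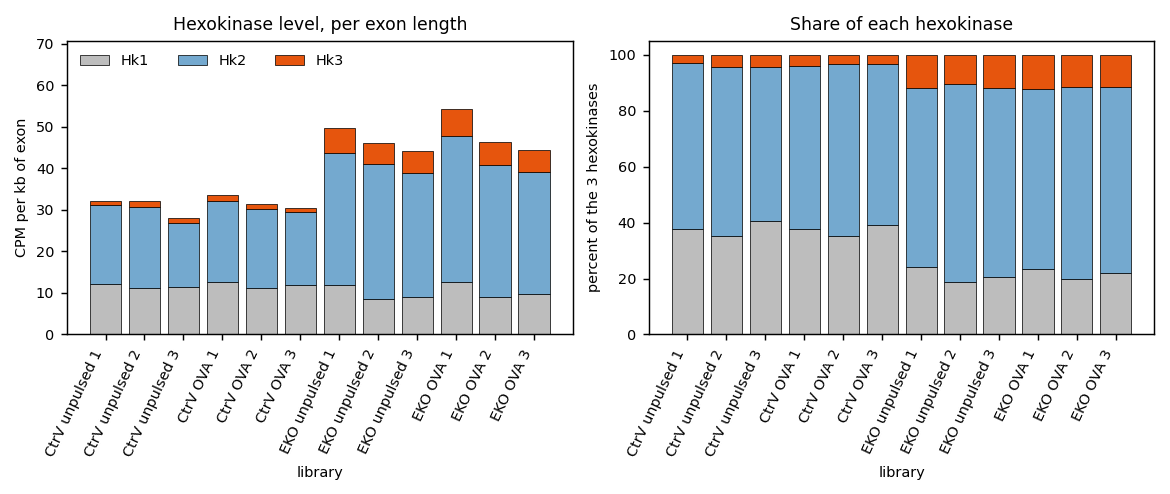
Level of the 3 hexokinase transcripts in each library, as CPM per kb of exon (left) and as percent of their sum (right). The sum lies between 28.1 and 33.6 CPM per kb in the 6 CtrV and between 44.1 and 54.4 in the 6 EKO-labelled libraries, and Hk3 (top segments) takes 3.12 to 4.41% against 10.6 to 12.3%.

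At the phosphofructokinase step, 4 of the 5 genes passed with OVA and 3 without, beside 47% and 46.4% of all tested genes. Pfkfb4, which makes and degrades the activator fructose 2,6-bisphosphate, stood at 7.50, 6.44 and 4.98 CPM in the unpulsed and 7.72, 6.06 and 5.76 in the OVA-pulsed CtrV libraries, and 12.9, 12.5 and 12.0 and 13.4, 10.5 and 11.4 in the corresponding EKO-labelled libraries. The lines did not overlap. It rose 1.81-fold with OVA, 0.85 (SE 0.10, adjusted p = 5.7e-05), and by a log2 fold change of 1.00 (SE 0.10, adjusted p = 2.4e-05) without.

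The subunits of phosphofructokinase itself, described after their values were seen, went different ways. Pfkp, the platelet type, was at 140.3 ± 10.3 CPM (mean ± SD, n = 3) in unpulsed and 149 ± 42.3 in OVA-pulsed CtrV cells, and 182 ± 8.75 and 198 ± 14.7 in the respective cells labelled EKO. Its log2 fold change was 0.43 (SE 0.12, adjusted p = 0.016) with OVA and 0.38 (SE 0.12, adjusted p = 0.027) without. In OVA-pulsed CtrV cells, replicate 1 (198 CPM) stood far above replicates 2 and 3 (both 125). The call with OVA was lost without OVA-pulsed CtrV replicate 2 (0.32, adjusted p = 0.1), OVA-pulsed CtrV replicate 3 (0.32, adjusted p = 0.09) or OVA-pulsed EKO replicate 3 (0.37, adjusted p = 0.072). The unpulsed call was lost without unpulsed CtrV replicate 1 (0.35, adjusted p = 0.081), unpulsed CtrV replicate 2 (0.37, adjusted p = 0.086), unpulsed CtrV replicate 3 (0.42, adjusted p = 0.053), unpulsed EKO replicate 2 (0.27, adjusted p = 0.14) or unpulsed EKO replicate 3 (0.37, adjusted p = 0.082), and without the replicate block (0.37, adjusted p = 0.07). Pfkm, the muscle type, fell from 8.21 ± 0.221 to 5.72 ± 0.0758 CPM (mean ± SD, n = 3) without OVA and from 7.85 ± 0.0951 to 5.94 ± 0.617 with OVA, -0.52 (SE 0.080, adjusted p = 0.00039) and -0.41 (SE 0.078, adjusted p = 0.0016). Pfkl, the liver type, had log2 fold changes of 0.052 (SE 0.070, adjusted p = 0.57) and -0.020 (SE 0.070, adjusted p = 0.84). Per kilobase, Pfkp was the main subunit in each group, with 55.5 ± 1.83% (SD, n = 3) of the 3 in unpulsed CtrV and 64.1 ± 2.94% in unpulsed EKO-labelled cells, and Pfkm went from 13.1 ± 0.871% to 8.09 ± 0.219% (two-sided exact permutation p = 0.1 for each).

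In the middle of the pathway, Tpi1, triosephosphate isomerase (chr6:124810586-124814296, minus strand), fell most of the 30 genes. It stood at 97.0, 83.1 and 100.2 CPM in the unpulsed and 85.3, 93.6 and 101 in the OVA-pulsed CtrV libraries, and 51.6, 40.9 and 42.3 and 48.8, 40.8 and 44.1 in the corresponding EKO-labelled libraries. No library of the EKO-labelled line came above 51.6 CPM, and none of CtrV below 83.1. The fall was 2.10-fold with OVA, -1.07 (SE 0.092, adjusted p = 5.8e-06), and 2.08-fold without, -1.06 (SE 0.093, adjusted p = 7.2e-06). Aldoa, which cleaves fructose 1,6-bisphosphate just before it, was at 829 ± 58.9 CPM (mean ± SD, n = 3) in unpulsed and 809.8 ± 31.7 in OVA-pulsed CtrV cells, and 788 ± 32.3 and 810.4 ± 9.56 in the respective cells labelled EKO. Its log2 fold changes of 0.0019 (SE 0.055, adjusted p = 0.98) and -0.072 (SE 0.056, adjusted p = 0.32) did not pass. Neighbouring steps thus had unlike values, and Aldoc, the brain aldolase, had 2 to 15 counts and was not tested.

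In the payoff phase, 3 of the 5 genes passed with OVA and 2 without, where 47% and 46.4% of all tested genes did. Eno1, enolase (chr4:150236721-150248879, plus strand), stood at 225, 206 and 238 CPM in the unpulsed and 210.1, 210.2 and 226 in the OVA-pulsed CtrV libraries, and 174, 138 and 149.6 and 174, 151 and 149 in the corresponding EKO-labelled libraries. The highest EKO-labelled library was below the lowest CtrV library. Eno1 fell 1.37-fold with OVA, -0.45 (SE 0.074, adjusted p = 0.00056), and 1.45-fold without, -0.54 (SE 0.074, adjusted p = 0.00017). Pgk1, phosphoglycerate kinase, which was described after its values were seen, rose from 156 ± 18.3 to 194 ± 18.03 CPM (mean ± SD, n = 3) without OVA and from 149 ± 1.31 to 199.9 ± 9.64 with OVA, 0.31 (SE 0.079, adjusted p = 0.0085) and 0.42 (SE 0.079, adjusted p = 0.0014). Pgam1 (phosphoglycerate mutase) and Pkm (pyruvate kinase) did not pass, with log2 fold changes of -0.045 (SE 0.059, adjusted p = 0.56) and -0.033 (SE 0.052, adjusted p = 0.63) with OVA, though Pkm passed on the average of both states under upper-quartile normalization (-0.10, adjusted p = 0.038).

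Gapdh, glyceraldehyde 3-phosphate dehydrogenase, stood at 58.6, 60.1 and 62.2 CPM in the unpulsed and 62.7, 59.2 and 66.5 in the OVA-pulsed CtrV libraries, and 56.3, 56.5 and 54.8 and 56.3, 52.5 and 55.8 in the corresponding EKO-labelled libraries. The lines did not overlap within a state. The log2 fold change was -0.19 (SE 0.050, adjusted p = 0.0093) with OVA and -0.11 (SE 0.051, adjusted p = 0.1) without, and the call with OVA was lost without OVA-pulsed CtrV replicate 3 (-0.16, adjusted p = 0.058). Upper-quartile normalization gained the unpulsed call (-0.16, adjusted p = 0.026). Gapdh was thus 1.14-fold lower with OVA.

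Some reads match several genes. The aligner placed a read with as many as 10 equal hits at 1 of them. Of the 50-base stretches of Gapdh transcripts, 58.4% also occurred in other annotated genes, mostly processed pseudogenes. For 49% of the stretches, these were 10 or more other genes. Reads with more hits than the aligner allowed could be missing from Gapdh and its copies alike, and adding copies cannot restore them. The 137 pseudogene copies of Gapdh summed to 285 and 270.3 CPM in CtrV and 257 and 255 in EKO-labelled cells (means of unpulsed and OVA-pulsed libraries), between 430.4 and 473% of Gapdh itself. Other genes that share much sequence were Pgk1 (68% of 50-base stretches), Bnip3 (59.1%), Eno1 (49.5%) and Pgam1 (41.5%). A smaller part was shared by Gpi1 (24.5%), Higd1a (24.4%) and Pkm (23.7%). Over the 4 groups, copies stood at 43.4 to 45.6% of the mean CPM of Gpi1 itself, 99.2 to 109% of Higd1a and 26.5 to 27.1% of Pkm. Copies of Eno1 went from 567 CPM in unpulsed CtrV to 393 in unpulsed EKO-labelled cells, those of Pgk1 from 286 to 365 and those of Tpi1 from 8.05 to 3.93, each in the direction of its parent. With copies added to the parent's counts, a setting chosen after seeing the data, the number of genes that passed was 21, 21 and 23 with OVA, without and averaged. Before copies were added, 47, 46.4 and 60.5% of all tested genes passed. Gapdh alone changed its call, to -0.11, adjusted p = 0.091 with OVA and -0.14, adjusted p = 0.032 without. The levels of these genes are therefore uncertain.

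Both tested genes of lactate production and export fell. Ldha, lactate dehydrogenase A (chr7:46841475-46855627, plus strand), stood at 546, 553 and 608 CPM in the unpulsed and 543, 559 and 572 in the OVA-pulsed CtrV libraries, and 483, 399.9 and 415 and 458, 426 and 408 in the corresponding EKO-labelled libraries. Slc16a3 (MCT4, which exports lactate from highly glycolytic cells) stood at 74.7, 76.1 and 77.0 CPM in the unpulsed and 72.5, 72.6 and 77.6 in the OVA-pulsed CtrV libraries, and 50.03, 46.5 and 49.4 and 55.0, 50.9 and 45.0 in the corresponding EKO-labelled libraries. For each gene, the lines were fully apart. Ldha fell 1.296-fold with OVA, -0.37 (SE 0.075, adjusted p = 0.002), and 1.32-fold without, -0.40 (SE 0.075, adjusted p = 0.0014). Slc16a3 fell 1.48-fold with OVA, -0.56 (SE 0.069, adjusted p = 7.6e-05), and 1.56-fold without, -0.64 (SE 0.070, adjusted p = 3.2e-05). Slc16a1 (MCT1, the widespread lactate transporter) had 0 counts in 9 libraries and at most 2 in the others, which is at or under the floor of 3 counts.

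Of the pyruvate dehydrogenase kinases, Pdk1, a HIF-1 target, fell from 46.2 ± 1.71 to 36.4 ± 1.66 CPM (mean ± SD, n = 3) without OVA and from 47.3 ± 4.38 to 34.8 ± 2.76 with OVA, -0.34 (SE 0.075, adjusted p = 0.0036) and -0.44 (SE 0.074, adjusted p = 0.00068). Pdk3 did not pass, with -0.032 (SE 0.044, adjusted p = 0.58) without and -0.10 (SE 0.043, adjusted p = 0.083) with OVA, though it did with OVA under upper-quartile normalization (-0.14, adjusted p = 0.029). Per kilobase, Pdk3 was the larger of the pair in every group, at 85.1 ± 0.415% (SD, n = 3) of their sum in unpulsed CtrV and 87.7 ± 0.479% in unpulsed EKO-labelled cells, without overlap (two-sided exact permutation p = 0.1).

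The transcripts of HIF-1 alpha and of Egln1, 1 of its oxygen sensors, moved in opposite directions. Egln2, a prolyl hydroxylase outside the list, rose like Hif1a, by 0.64 with OVA and 0.48 without. Hif1a (chr12:73901375-73947530, plus strand) stood at 239, 243 and 214 CPM in the unpulsed and 251, 229.9 and 237 in the OVA-pulsed CtrV libraries, and 293, 293 and 307 and 294, 320.2 and 292 in the corresponding EKO-labelled libraries. All 6 EKO-labelled libraries lay above all CtrV libraries. It rose 1.26-fold with OVA, 0.33 (SE 0.062, adjusted p = 0.0013), and 1.29-fold without, 0.36 (SE 0.062, adjusted p = 0.00079). Egln1 (PHD2, the main prolyl hydroxylase that marks HIF-1 alpha), described after its values were seen, fell from 68.5 ± 1.97 to 51.1 ± 5.69 CPM (mean ± SD, n = 3) without OVA and from 65.9 ± 3.39 to 53.1 ± 4.12 with OVA, -0.42 (SE 0.082, adjusted p = 0.0018) and -0.31 (SE 0.082, adjusted p = 0.0093). The call with OVA was lost without OVA-pulsed EKO replicate 3 (-0.25, adjusted p = 0.057). Egln3 (PHD3, a hydroxylase that is itself strongly induced by HIF) had 0 counts in 11 libraries and 1 in OVA-pulsed EKO replicate 3. The level of HIF-1 alpha protein was not measured by these libraries.

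Of the 8 other HIF-1 targets, 6 were tested. With OVA, 1 rose and 3 fell (25.1% and 21.9% of all tested genes), and without OVA 0 rose and 3 fell (24.5% and 21.9%). Bnip3, a mitochondrial receptor for autophagy, stood at 4.61, 5.11 and 5.15 CPM in the unpulsed and 4.56, 5.22 and 5.27 in the OVA-pulsed CtrV libraries, and 3.96, 2.80 and 3.30 and 3.55, 3.50 and 3.65 in the corresponding EKO-labelled libraries. The lines did not overlap, though all 12 values were low and 22.3% of its exon bases lie under an antisense gene, Gm45507. Such exon bases were 22.5% of Higd1a and 26.4% of Ankrd37. Whether strand was used in counting is not given in the sources used here. Bnip3 fell 1.40-fold with OVA, -0.49 (SE 0.12, adjusted p = 0.0074), and 1.48-fold without, -0.57 (SE 0.13, adjusted p = 0.0041). P4ha1 (a collagen prolyl hydroxylase) fell by 0.31 in both states (adjusted p = 0.0057 and 0.0068), and Kdm3a (a histone demethylase) fell by 0.24 and 0.27 (adjusted p = 0.0075 and 0.0044). Higd1a (a mitochondrial protein of the hypoxia response) did not pass, with -0.050 (SE 0.11, adjusted p = 0.74) and -0.054 (SE 0.11, adjusted p = 0.72). Vegfa (the angiogenic growth factor) had 1 to 20 counts per library, 0.0302 to 0.343 CPM in CtrV and 0.153 to 0.522 in EKO-labelled libraries, and was not tested. Ankrd37 (an ankyrin repeat protein), also not tested, had 10 to 29 counts, 0.596 to 0.845 CPM in CtrV and 0.305 to 0.586 in EKO-labelled libraries, which did not overlap.

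**Figure D4:**
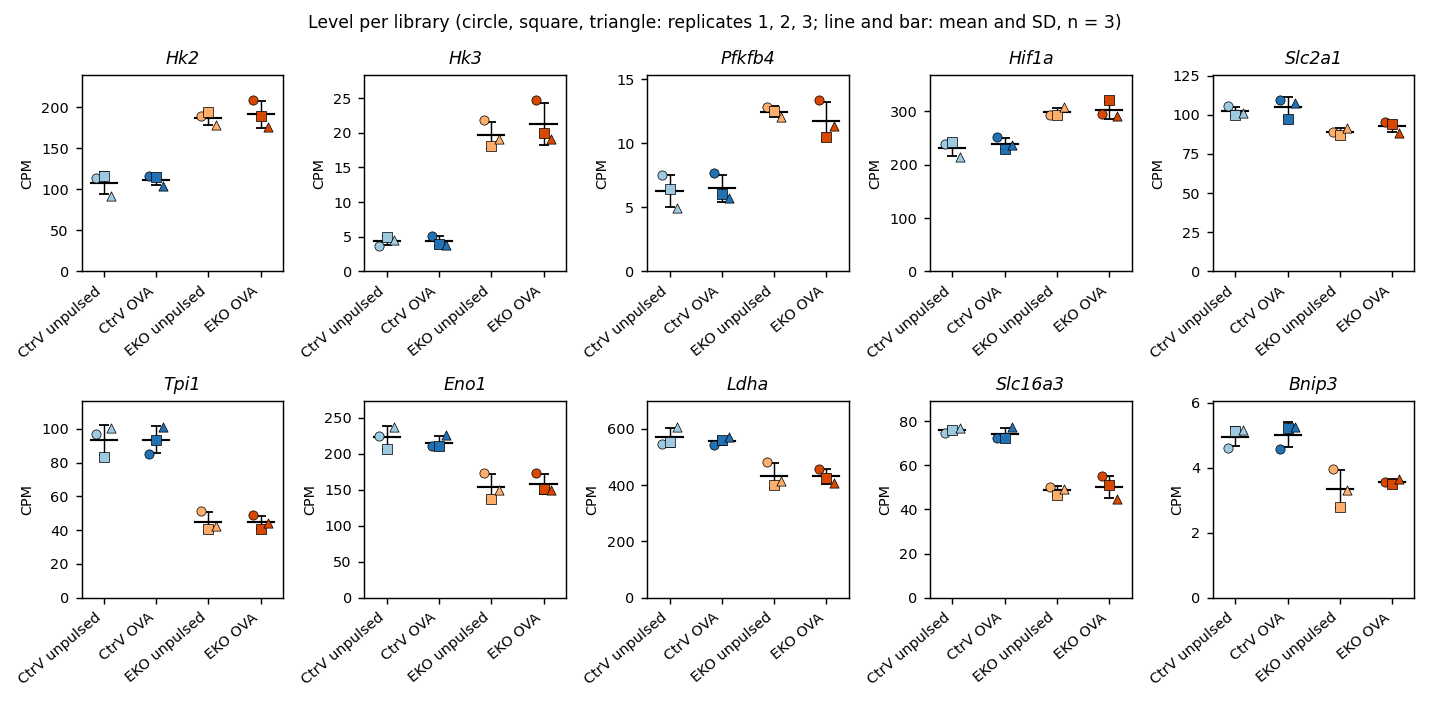
CPM in each library of 10 genes, with circles, squares and triangles for replicates 1, 2 and 3, lines for the group mean and bars for the SD (n = 3). Hk2, Hk3, Pfkfb4 and Hif1a lie higher and the other 6 genes lower in the EKO-labelled groups. In the 10 genes picked for display the 2 lines do not overlap, as in 18 of the 30 tested genes and 35.6% of all tested genes. Slc2a3, whose lines overlap across the states, is not shown.

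In some genes, 1 replicate stood apart. Replicate 1 of the EKO-labelled line lay above replicates 2 and 3 in both states for 17 of the 30 genes (26.9% of all tested genes) and below both for 0 (25.6% of all tested genes). In CtrV, replicate 1 lay above for 7 (14% of all tested genes) and below for 6 (15.9% of all tested genes). Pfkfb3, an inducible maker of fructose 2,6-bisphosphate that was described after its values were seen, stood at 53.3, 57.0 and 54.9 CPM in the unpulsed and 71.5, 53.9 and 47.5 in the OVA-pulsed CtrV libraries, and 139, 61.1 and 48.3 and 146, 61.7 and 91.2 in the corresponding EKO-labelled libraries. In unpulsed EKO-labelled cells, replicate 2 was just above and replicate 3 below the CtrV libraries. The log2 fold change was 0.74 (SE 0.25, adjusted p = 0.032) with OVA and 0.44 (SE 0.26, adjusted p = 0.19) without, the latter between 0.12 and 0.68 when 1 library was left out. The call with OVA was lost without OVA-pulsed CtrV replicate 1 (0.64, adjusted p = 0.11), OVA-pulsed CtrV replicate 2 (0.84, adjusted p = 0.053), OVA-pulsed CtrV replicate 3 (0.73, adjusted p = 0.096), OVA-pulsed EKO replicate 1 (0.64, adjusted p = 0.12) or OVA-pulsed EKO replicate 3 (0.61, adjusted p = 0.13). It was also lost with DESeq2 (0.74, adjusted p = 0.051), without the replicate block (0.79, adjusted p = 0.11) and without replicate 1 of both EKO-labelled groups (0.50, adjusted p = 0.059). The averaged value of 0.59 (SE 0.18, adjusted p = 0.015) went to 0.28, adjusted p = 0.12 without replicate 1 of both EKO-labelled groups, and to 0.52, adjusted p = 0.051 without OVA-pulsed EKO replicate 3.

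Ndrg1, a stress-response gene induced by hypoxia and also described after its values were seen, had the widest spread, at 11.5, 15.8 and 18.05 CPM in the unpulsed and 28.3, 11.7 and 9.34 in the OVA-pulsed CtrV libraries, and 44.7, 18.5 and 14.6 and 51.5, 17.99 and 31.8 in the corresponding EKO-labelled libraries. Replicate 1 was the highest library of 3 of the 4 groups. The log2 fold change was 1.06 (SE 0.36, adjusted p = 0.032) with OVA and 0.57 (SE 0.37, adjusted p = 0.24) without, the latter between 0.025 and 0.90 when 1 library was left out. The call with OVA was lost without OVA-pulsed CtrV replicate 2 (1.06, adjusted p = 0.086), OVA-pulsed CtrV replicate 3 (0.84, adjusted p = 0.14), OVA-pulsed EKO replicate 1 (1.00, adjusted p = 0.11) or OVA-pulsed EKO replicate 3 (0.88, adjusted p = 0.12), without the replicate block (1.03, adjusted p = 0.13) and without replicate 1 of both EKO-labelled groups (0.84, adjusted p = 0.13). The averaged value of 0.82 (SE 0.26, adjusted p = 0.018) went to 0.71, adjusted p = 0.058 without OVA-pulsed EKO replicate 3, to 0.56, adjusted p = 0.14 without replicate 1 of both EKO-labelled groups and to 0.90, adjusted p = 0.052 without the block. Mxi1 (a partner of MAX that opposes MYC), with values of 0.14 (SE 0.17, adjusted p = 0.52) and -0.20 (SE 0.17, adjusted p = 0.37), did not pass, except that it was lower without OVA when unpulsed CtrV replicate 1 was left out (-0.42, adjusted p = 0.033). What set replicate 1 apart was not tested.

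**Figure D5:**
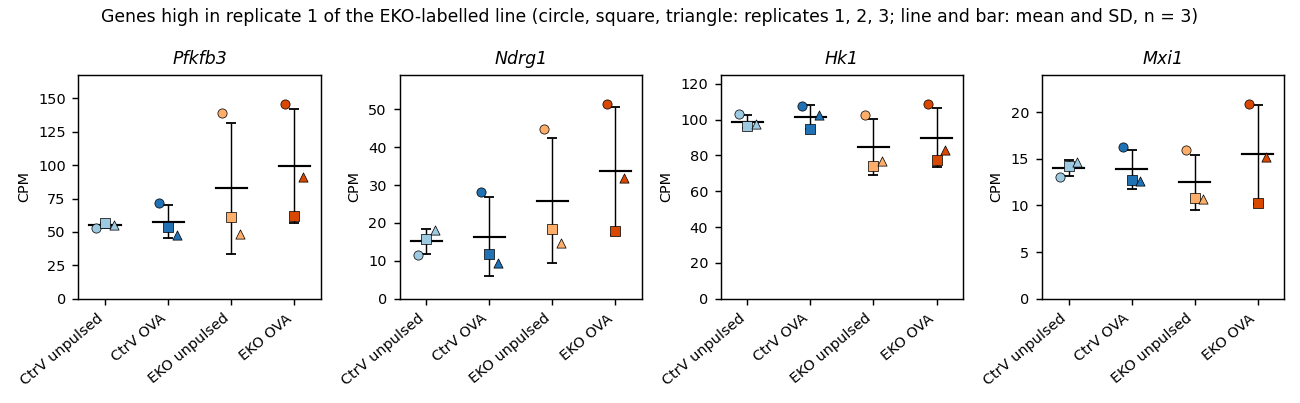
CPM in each library of 4 genes that were high in replicate 1 of the EKO-labelled line, with circles, squares and triangles for replicates 1, 2 and 3, lines for the mean and bars for the SD (n = 3). Pfkfb3 reaches 139 and 146 CPM and Ndrg1 44.7 and 51.5 CPM in replicate 1 of the EKO-labelled groups. For Pfkfb3 and Ndrg1, the other replicates of those groups lie at or nearer to the CtrV level. For Hk1, replicate 1 lies at the upper end of the CtrV libraries and replicates 2 and 3 lie below them. Without OVA, EKO-labelled replicate 1 of Mxi1 (15.9 CPM) lies above the CtrV libraries and replicates 2 and 3 (10.8 and 10.7) below.

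Pulsing with OVA gave no detectable change of these genes at this depth and number of libraries. With edgeR, 0 of 30 genes passed for OVA-pulsed against unpulsed CtrV cells (0% of all 14079 tested genes), 0 for EKO-labelled cells (0%), and 0 for a dependence of the difference between the lines on pulsing (0%). At an unadjusted p under 0.05, the numbers among the 30 were also 0 in each of the 3 comparisons, and 231, 394 and 269 among all tested genes. DESeq2 and limma voom passed 0 of the 30 too. The most negative and most positive log2 fold changes on pulsing were -0.076 and 0.21 (Slc2a3, SE 0.093) in CtrV, and -0.094 and 0.42 (Ndrg1, SE 0.35) in EKO-labelled cells. For Hk3, the difference between the lines with OVA exceeded that without by 0.14 (SE 0.18), and for Slc2a3 it was -0.22 (SE 0.13) on the log2 scale. All groups had received LPS, so an effect of LPS on glycolysis could not be looked for.

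Genes around the listed ones, taken from hand-made lists of the same pathways, also moved in both directions. Counts are of genes that passed on the difference between the lines averaged over pulsing, and the 2 genes named from each list are those that passed with the largest averaged log2 fold change. Of all tested genes, 31.3% rose and 29.1% fell in that comparison. Of 18 other tested glycolysis genes, 7 rose and 7 fell, among them Slc2a9 (a urate and hexose transporter with 18 to 53 counts per library) at -0.80 (SE 0.16, adjusted p = 0.0014) and Gpd1l (a glycerol 3-phosphate dehydrogenase) at -0.75 (SE 0.051, adjusted p = 5.1e-07). Eno1b, which also fell (-0.51, SE 0.068, adjusted p = 7.9e-05), was treated above as a possible copy of Eno1. Its reads may thus not be separate from those of Eno1. Of 11 genes of pyruvate entry into mitochondria, 6 rose and 1 fell, with Pdhx (a structural subunit of the pyruvate dehydrogenase complex) at 0.73 (SE 0.053, adjusted p = 7.2e-07) and Pdha1 (its catalytic subunit) at -0.28 (SE 0.029, adjusted p = 1.3e-05). Of 11 pentose phosphate genes, 3 rose and 6 fell, with Prps2 (a ribose phosphate pyrophosphokinase) at -0.64 (SE 0.044, adjusted p = 5.1e-07) and Rpe (ribulose phosphate epimerase) at 0.41 (SE 0.040, adjusted p = 6.3e-06). None of these lists moved wholly one way.

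Among 12 tested genes of the HIF machinery, 4 rose and 2 fell. Cited2, which competes with HIF-1 alpha for its coactivator, rose by 1.13 (SE 0.12, adjusted p = 1.4e-05), and Egln2, a further prolyl hydroxylase, by 0.56 (SE 0.048, adjusted p = 2.6e-06). Of 22 other tested HIF targets, 8 rose and 10 fell. The 2 with the largest change were near the detection limit: Adm (adrenomedullin) had 2 to 5 counts per CtrV library and 21 to 35 per EKO-labelled library, and Pgf (placental growth factor) had 6 to 17 and 24 to 61 counts. In CPM, Adm lay at 0.0540 to 0.179 in CtrV and 0.645 to 0.989 in EKO-labelled libraries, and Pgf at 0.181 to 0.583 and 0.733 to 1.83. Both passed the expression filter only through the EKO-labelled libraries, where they were high. Their rise was thus built into their being tested, and no p-value is given, though both count among the 8 that rose. Of 9 tested genes of glucose sensing, 3 rose and 2 fell, with Arrdc4 (an arrestin that limits glucose uptake) at -0.71 (SE 0.055, adjusted p = 1.3e-06) and Txnip (its relative, induced by glucose) at 0.30 (SE 0.078, adjusted p = 0.0074). The median averaged log2 fold change was 0.0038 for the other glycolysis genes, 0.13 for pyruvate entry, -0.13 for the pentose phosphate genes, 0.075 for the HIF machinery, -0.078 for the other HIF targets and 0.059 for glucose sensing, beside -0.0018 over all tested genes.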

How the data were processed

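Polyadenylated RNA of 12 libraries (4 groups, 3 replicates each) was analysed from the gene counts deposited by the authors, which are raw counts per gene of reads overlapping unions of exons. According to the study's methods, the authors aligned reads to mm10 with STAR and counted them with featureCounts on an Ensembl gene model. The strand setting is not given in the sources used here. All count columns were mapped to a library (0 set aside). Genes were kept when log2 CPM, which edgeR takes with a small count added, exceeded 0 in at least 2 libraries, which left 14079 of 55401.

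Counts were fitted with edgeR 4.0.16 in R 4.3.3 (TMM normalization, quasi-likelihood test, Benjamini-Hochberg adjustment over all tested genes, threshold 0.05), with group and replicate number as terms over all 12 libraries, as in the study's methods. Same-numbered libraries of the 2 lines had deviations from their group means that correlated at 0.46, 0.315 and 0.351 with OVA and 0.104, 0.00406 and 0.314 without, so that without OVA the numbers do not pair every library. Shares per kilobase used exon lengths of GENCODE M21 (GRCm38), which differs from the authors' gene model. The exact 50-base stretches that a gene shares with other annotated genes were counted in the same annotation. Promoter windows came from RefSeq (GRCm38.p6), 1 per gene, nearest to the annotated start. Alternatives were DESeq2 1.42.0, limma voom 3.58.1, other normalizations, filters and thresholds, a fit without the replicate term, fits of the compared groups alone, and the omission of each library. Chosen after seeing the data were a bias-adjusted quasi-likelihood fit, the addition of pseudogene copies, and a restriction to genes sharing under 5% of their 50-base stretches.

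The 35 genes and all lists were chosen with earlier results of these data known. Values per library are given for Slc2a1, Hk2, Gapdh, Ldha, Hif1a and Egln3 and for the 8 genes with the largest averaged change among those passing in both states with the same sign. Genes described beyond these were chosen after their values were seen. A planned comparison of protein sequences was not used here.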

Additional observations from a re-analysis of the deposited data

How the results depend on the processing

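Among the 30 tested genes, 17 to 24 passed with OVA and 16 to 21 without, over the other tools, normalizations, thresholds on p and omissions of 1 library, with the 31 or 35 genes of other filters included. The number of all 14079 tested genes that passed moved as well. At an adjusted p under 0.01 it was 4735 with OVA (18 of the 30) and 4573 without (16 of the 30). With upper-quartile normalization it was 6799 (24 of the 30) and 6774 (21 of the 30). No median changed its sign. With an absolute log2 fold change of at least 1 also required, 3 genes passed with OVA, 2 without and 2 averaged (10, 6.67 and 6.67% of the 30), against 9.01, 8.81 and 8.91% of all tested genes. Of the 15 genes with under 5% of 50-base stretches in other genes, 11, 11 and 12 passed, against 47, 46.4 and 60.5% of all tested genes. Their medians were -0.20 without OVA and -0.18 averaged. Both settings lower the count by construction. Without the replicate block, 20, 17 and 21 of the 30 passed (with OVA, without, averaged), and 5413, 5337 and 7477 of all genes. Over all alternatives and single genes, 1745 values kept direction and call, 115 kept direction and lost the call and 11 gained it. The sign changed in 34 values of 6 genes, of which 0 were called in either setting. With OVA, Aldoa went to -0.0017 with DESeq2, -0.0017 with RLE and -0.035 with upper-quartile normalization and -0.012 without the filter. Without replicate 1 of both EKO-labelled groups, Pfkl went to -0.046 and Mxi1 to -0.086 with OVA, and Pfkl to -0.073 averaged (-0.028 with upper-quartile normalization). With copies added, Higd1a went to 0.017 with OVA. Omission of 1 library gave, with OVA, -0.029 to 0.037 for Aldoa, -0.019 to 0.085 for Pfkl, -0.10 to 0.0067 for Pgam1, -0.081 to 0.010 for Pkm, -0.13 to 0.0038 for Higd1a and -0.033 to 0.32 for Mxi1. Without OVA it gave -0.076 to 0.015 for Pfkl and -0.20 to 0.077 for Higd1a. Averaged, it gave -0.018 to 0.033 for Pfkl, -0.12 to 0.013 for Higd1a and -0.15 to 0.058 for Mxi1. The cause was not tested. With 3 libraries a group, exact tests of single values could not go below 0.1. Counts limit Aldoc, Slc16a1, Egln3, Vegfa and Ankrd37, and shared sequence limits Gapdh, Pgk1, Bnip3, Eno1 and Pgam1. It also limits Gpi1, Higd1a and Pkm, which share a smaller part.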
